A study of Mus musculus with 6 samples.

Results

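The SPINK genes encode secreted proteins that share the Kazal fold, many of them small inhibitors of serine proteases. They were followed here in whole prostates of mice aged 4 weeks, 3 of which were AR3 transgenic, while 3 wild-type littermates served as controls. Every mouse had its own array. AR3 is a truncated splice form of the androgen receptor that lacks the ligand-binding domain. The labels name neither the promoter that drives the transgene nor the strain, and the level of the transgene was not analysed here. The 9 genes described are Spink1, Spink2, Spink4, Spink5, Spink8, Spink10, Spink11, Spink12 and Spinkl, out of 19938 genes that could be followed on the array. Each was taken from a probe set whose only gene symbol was the member, and where a gene had several, the one with the highest mean over all 6 arrays was to be kept. All 9 members have 1 probe set each, so that step chose nothing. The family was picked with its genotype differences already known, so the tests below say how each gene stands among all genes and are not independent evidence.

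A Kazal domain presents an exposed loop that fits the active site of a trypsin-like protease and blocks it. In the male tract such inhibitors are secreted into the fluids that form semen, where they meet kallikreins, trypsin-like proteases and the sperm protease acrosin. Mouse Spink1, also called P12, is an androgen-responsive product of prostate and seminal vesicle as well as a trypsin inhibitor of pancreatic juice. Spinkl was described as a seminal vesicle protein that binds sperm, and Spink8, Spink10, Spink11 and Spink12 are known from the epididymis. Spink5 holds many Kazal domains and restrains kallikreins in skin, Spink2 acts on acrosin in sperm, and Spink4 is a product of intestinal goblet cells.

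Spink11 and Spinkl were below the background scale in wild-type prostates and bright in every transgenic prostate. Spink8 was modestly higher in transgenic prostates, and Spink1 was lower. Of the 9 members, 3 were called higher and 1 lower at an adjusted p of 0.05 (limma, Benjamini-Hochberg over 28944 probe sets), and 5 did not pass. Over all genes, 1.64% were called, 1.18% higher and 0.456% lower (235 and 91 genes, against 247 and 178 after median centring of the arrays). In 5 members the 3 transgenic values lay outside the wild-type range, against 19.1% of all genes. An unadjusted p under 0.05 in limma was reached by 2428 of all 19938 genes, the share to set beside such counts below. The median log2 change of the 9 was 0.26, and that of all genes 0.01. Nothing is read from these shares, since the family was picked with this contrast known.

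Levels are intensities on a linear scale, and no detection calls were used. The 95th percentile of 1035 olfactory receptor probe sets on each array served as a scale of background, and it lay between 66.9 and 91.9. The median intensity of all tested probe sets lay between 94.5 and 110.8 per array. All 13 measured prostate luminal and secretory markers, such as Pbsn and Tgm4, lay above this background on every array. In whole tissue, fewer cells of a type and less RNA per cell cannot be told apart. With 3 arrays per genotype the precision is limited throughout.

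**Figure D1:**
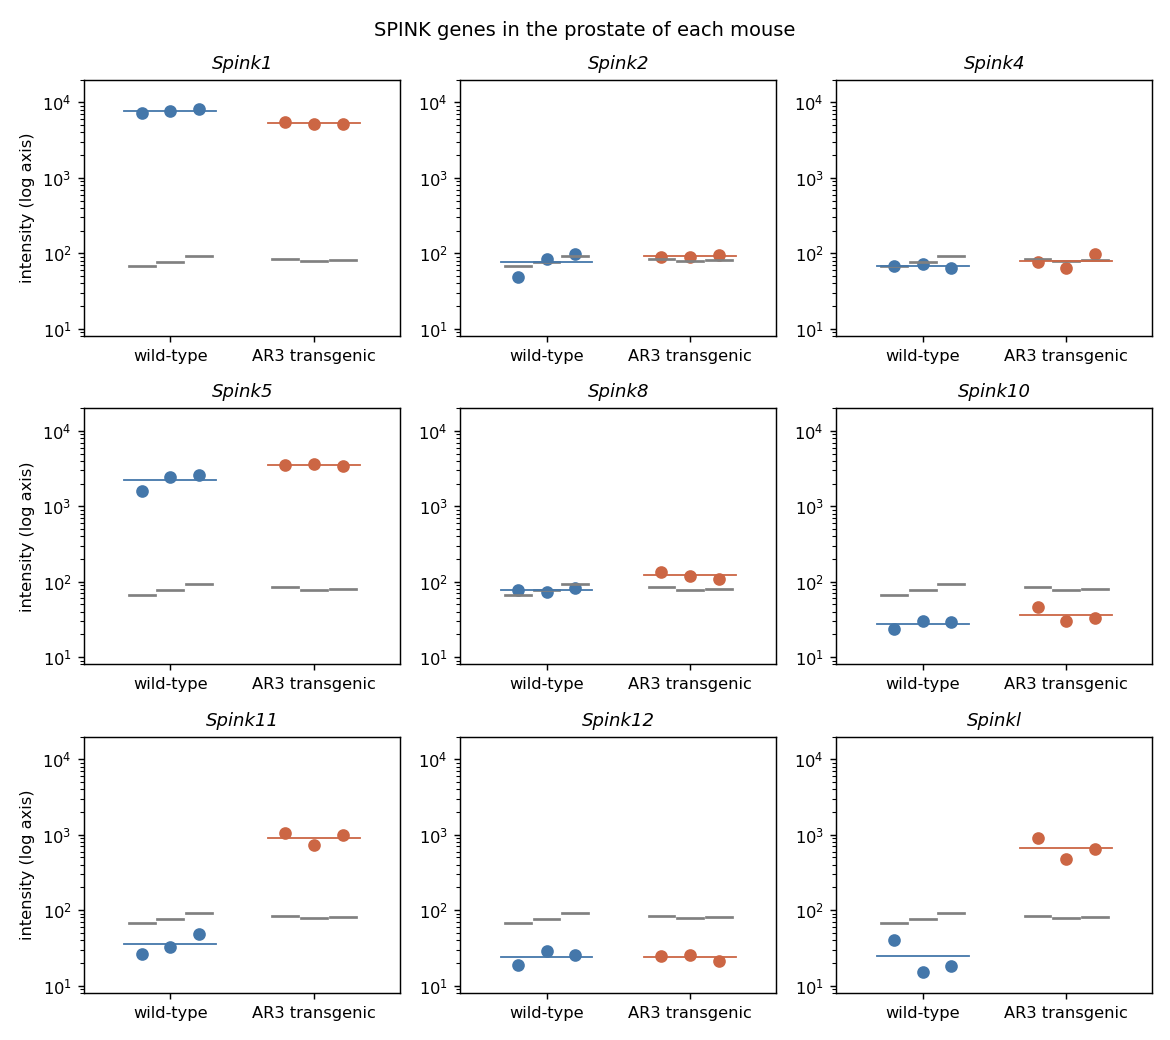
Intensity (log axis) of the 9 SPINK genes in each mouse, with wild-type mice on the left and AR3 transgenic mice on the right of each panel. Dots are mice, coloured lines are group means and short grey bars are the background scale of that array; Spink11 and Spinkl lie below the bars in wild-type and at 473.5 or more in transgenic mice.

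Spink11 had intensities of 26.3, 32.8 and 48.3 in wild-type mice 1, 2 and 3, and of 1041, 725.2 and 981.6 in transgenic mice 1, 2 and 3. All 3 wild-type values lay below the background scale of their array and all 3 transgenic values far above it, with no overlap. The means were 35.8 ± 11.3 and 915.9 ± 167.8 (SD, n = 3 each). On the log2(intensity + 16) scale the change was 4.17 ± 0.19 (SE), with an adjusted p of 2.3e-05 in limma. Since the wild-type arrays did not exceed background, the fold is given as a bound of at least 11.6-fold, set against the background scale. The size depends on the added constant: the log2 change was 4.67 with 1 and 3.29 with 64.

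Spinkl had intensities of 40.6, 15.2 and 18.4 in wild-type mice 1, 2 and 3, and of 905.4, 473.5 and 638.6 in the transgenic mice. As for Spink11, no wild-type array exceeded its background scale and every transgenic array did. The lowest transgenic value stood 432.9 intensity units above the highest wild-type value. Its means were 24.7 ± 13.8 and 672.5 ± 217.9 (SD, n = 3 each), so it varied more between transgenic mice than Spink11, with an SD of 32.4% of the mean against 18.3%. The log2 change was 4.08 ± 0.28 (SE), with an adjusted p of 2.8e-04 in limma, and ran from 3.02 with an added constant of 64 to 4.79 with 1. The bound on the fold was at least 8.32-fold. Among transgenic mice both Spink11 and Spinkl were highest in mouse 1 and lowest in mouse 2, whereas in wild-type mice Spinkl was highest in mouse 1 and Spink11 in mouse 3.

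Spink1 was bright in both genotypes and lower in transgenic mice. Its intensities were 7190.0, 7590.1 and 8247 in wild-type mice 1, 2 and 3, and 5465.5, 5183 and 5214.5 in transgenic mice. The groups did not overlap, and the spread was smaller among transgenic mice, at an SD of 154.8 against 533.6. The mean fell from 7676 ± 533.6 to 5288 ± 154.8 (SD, n = 3 each), a ratio of 0.689. The log2 change was −0.53 ± 0.08 (SE), with an adjusted p of 0.0196 in limma. Leaving out wild-type replicate 2 ended this call (adjusted p 0.0953), as did leaving out transgenic replicate 1 (0.0737), 2 (0.119) or 3 (0.122), while the log2 change stayed between −0.58 and −0.48 in all 16 alternative settings.

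Spink5 was also bright, and its values lay higher in transgenic mice. Intensities were 1593, 2447 and 2591 in wild-type mice 1, 2 and 3, and 3538, 3695 and 3461 in transgenic mice. The groups did not overlap, and wild-type mouse 1 lay well below the other wild-type mice. The log2 change of 0.72 ± 0.17 (SE), with a 95% interval of 0.31 to 1.12 unadjusted for the number of genes, did not pass the threshold over all probe sets (adjusted p 0.136, limma). Without wild-type replicate 1 the change was smaller, at 0.50, and was called with an adjusted p of 0.0312. It was also called after median centring of the arrays (0.0225) and with array weights (0.0299), and not in the other 13 of the 16 alternative settings.

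Spink8 lay close to background in wild-type prostates, at 78.2, 73.2 and 81.3 in mice 1, 2 and 3, with 1 of 3 arrays above its own background scale. In transgenic mice 1, 2 and 3 it was at 135.4, 119.2 and 108.3, all above the scale. The 2 genotypes did not overlap. The log2 change was 0.55 ± 0.09 (SE), with an adjusted p of 0.0360 in limma. The call was lost without any 1 of the 6 arrays, where the adjusted p lay between 0.0644 and 0.163, with an added constant of 1 (0.0552) and after quantile normalization (0.0525). Its direction was the same in all 16 alternative settings, from 0.38 to 0.63.

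The other 4 members did not pass the threshold, and their genotypes overlapped. Spink2 was at 48.0, 82.7 and 98.1 in wild-type and 88.2, 90.3 and 95.4 in transgenic mice, so wild-type mouse 1 stood below the rest. Its log2 change was 0.26 ± 0.19 (SE), with an unadjusted 95% interval of −0.19 to 0.71. Spink4 was at 67.3, 71.9 and 63.5 in wild-type and 76.4, 63.2 and 97.2 in transgenic mice, with a log2 change of 0.17 and an interval of −0.13 to 0.47. Both sat around the background scale, which 1 of 3 arrays exceeded in each genotype for Spink4. For Spink2, 2 wild-type and 3 transgenic arrays exceeded the scale. Spink10, between 23.6 and 46.4 over all 6 arrays, and Spink12, between 18.7 and 28.7, never exceeded it. Their log2 changes were 0.25 (interval −0.05 to 0.55) and −0.02 (interval −0.27 to 0.24). For these genes, near or below background, a small difference in expression could have gone unseen.

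The other measured SPINK genes, Spink6, Spink7, Spink13 and Spink14, complete a set of 13. None of these 4 exceeded the background scale on any array, and limma called 0 of them, with 0 at an unadjusted p under 0.05. Spink6, a skin inhibitor of kallikreins, had a log2 change of −0.10 ± 0.09 (SE), and Spink7 one of 0.03 ± 0.10. Spink13 had −0.23 ± 0.12 and Spink14 0.04 ± 0.09.

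**Figure D2:**
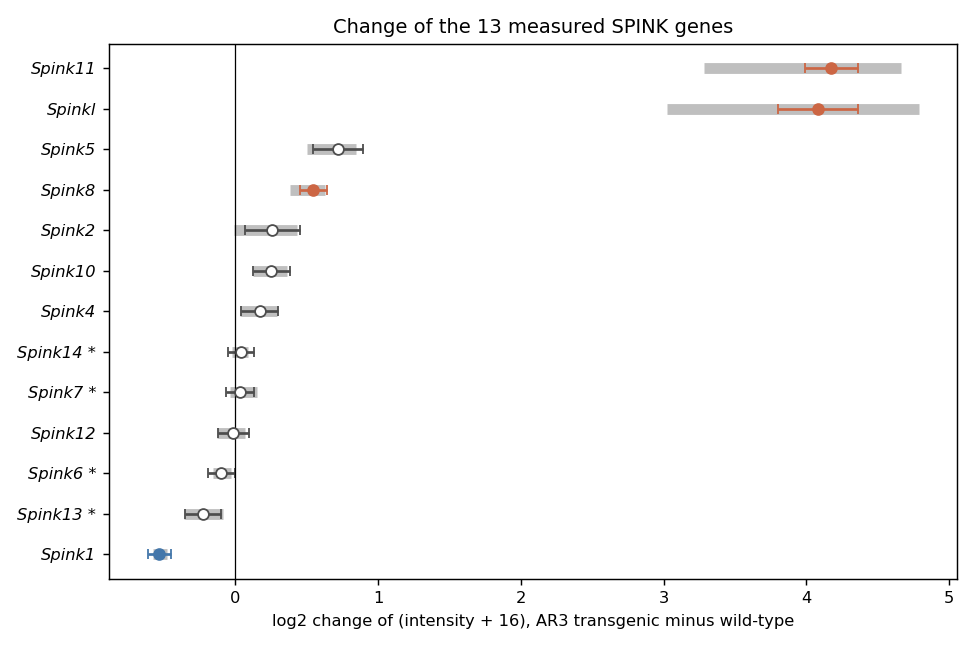
Log2 change of intensity + 16, transgenic minus wild-type, of the 13 measured SPINK genes with its standard error from limma (3 mice per genotype). Filled orange and blue points passed the threshold higher and lower, open points did not, grey bars span the 16 alternative settings and an asterisk marks genes outside the 9 described; Spink11 and Spinkl stand apart at 4.17 and 4.08.

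Chromosomal order was read from RefSeq genes (assembly GRCm38.p6), which include all 9 members. Spink1, Spink5, Spink10, Spink11, Spink12 and Spinkl lie on chromosome 18, Spink2 on chromosome 5, Spink4 on chromosome 4 and Spink8 on chromosome 9. Among the measured protein-coding genes, the only ones placed in order here, Spinkl and Spink11 are adjacent. Next to Spinkl in that order lies the predicted gene Gm10267. It had a wild-type mean of 9.36 ± 5.90 and a transgenic mean of 32.4 ± 7.16 (SD, n = 3 each), both below background. Its log2 change of 0.95 ± 0.19 did not pass (adjusted p 0.0703, limma). On the other side of Spink11, Npy6r had a log2 change of 0.26 ± 0.17 and did not pass.

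These neighbours were picked by position after the members' values were known. Beyond Npy6r, Myot, which encodes the muscle Z-disc protein myotilin, rose from 45.9 ± 3.02 to 215.9 ± 16.3 (SD, n = 3 each), at least 2.76-fold over background, and its log2 change was 1.90 ± 0.08 (adjusted p 2.3e-05, limma). Limma called 0 of the 9 measured skeletal muscle markers, of which 4 had an unadjusted p under 0.05 and whose median log2 change was −0.20. Acta1, the brightest of these, had a log2 change of 0.19. At the far end Spink1 is followed by the secretoglobin gene Scgb3a2, whose log2 change was 0.09 ± 0.11. Between Spink5 and Spinkl, the genes Spink14, Spink6 and Spink12 had log2 changes between −0.10 and 0.04. Of 7 measured protein-coding genes that interleave with or flank this run, limma called 2, Myot and Dpysl3 (0.83 ± 0.14, adjusted p 0.0358). The call on Dpysl3 held only when wild-type replicate 1 was the array left out, with an adjusted p up to 0.134 otherwise.

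**Figure D3:**
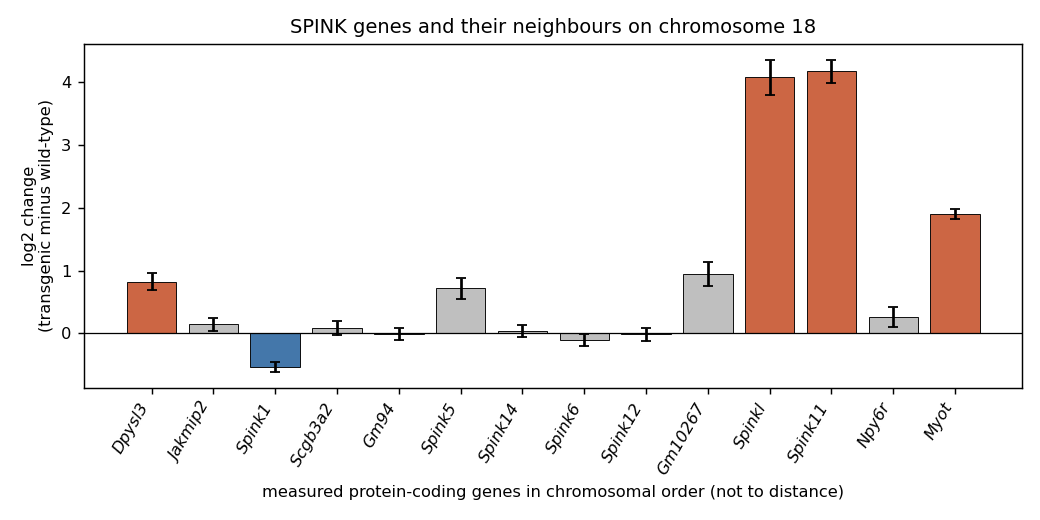
Log2 change (transgenic minus wild-type, bars, with SE from limma) of the measured protein-coding genes from Dpysl3 to Myot on chromosome 18, in chromosomal order and not to distance. Orange bars were called higher, blue lower and grey bars did not pass; the adjacent genes Spinkl and Spink11 reach 4.08 and 4.17 while Spink14, Spink6 and Spink12 lie near 0.

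Probe sequences were not used, so signal shared between similar SPINK genes was not separated. Spink12 and Spink14, in the same run, stayed below background on all arrays on which Spink11 and Spinkl were bright. How alike the probes of these genes are was not examined, and signal shared between the adjacent Spink11 and Spinkl was not tested.

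Spinkl is a known seminal vesicle product, so seminal vesicle genes were set beside it. The list held 11 measured genes, of which 1 was called higher, 2 lower and 8 not, with a median log2 change of −0.08. Its summed intensity ran from 8519 to 12232 in wild-type and from 8049 to 15076 in transgenic mice. Much of that sum was 1 gene, 9530002B09Rik, at 7340.9 to 8512.3 in wild-type and 5131.5 to 5983.5 in transgenic mice. The sum is therefore no measure of the other genes of the list. Svs2, Svs4 and Svs5, abundant secretory proteins of the seminal vesicle, were at 1768.5, 622.3 and 1019.5 in wild-type mouse 1, where Spinkl was at 40.6 and Spink11 at 26.3. In transgenic mouse 2 the same 3 genes were at 24.6, 60.3 and 15.5, all below background, and there Spinkl was at 473.5 and Spink11 at 725.2. They were again high in transgenic mouse 3, at 469.6, 2345 and 2861. In transgenic mouse 1 they were at 50.6, 249.2 and 344.8, with only Svs2 below background. Spinkl (905.4) and Spink11 (1041) were highest in that mouse. In wild-type mice 2 and 3, Svs2, Svs4, Svs5 and both SPINK genes all lay below background. The part of seminal vesicle tissue in the changes of Spinkl and Spink11 was not tested.

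Ceacam10, the list's called gene that was higher, went from 42.3 ± 4.92 to 932.5 ± 37.2 (SD, n = 3 each), which is 4.03 ± 0.09 on the log2 scale (adjusted p 7.4e-07, limma) and at least 11.9-fold over background. Pate4 was at 941.9, 25.3 and 36.7 in wild-type and 1782, 1203 and 3026.5 in transgenic mice, and did not pass (adjusted p 0.201). Svs3a fell by 1.43 on the log2 scale (adjusted p 0.0192), and leaving out wild-type replicate 2 or transgenic replicate 1 or 3 ended that call (adjusted p up to 0.107). 9530002B09Rik had a log2 change of −0.51 (adjusted p 0.0496), which was called with wild-type replicate 1 left out and with no other array left out (adjusted p up to 0.243). With wild-type mouse 1 and transgenic mouse 3, the highest of each genotype in this list, both left out, Spinkl changed by 4.36 (adjusted p 0.00408) and Spink11 by 3.98 (adjusted p 0.00179).

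**Figure D4:**
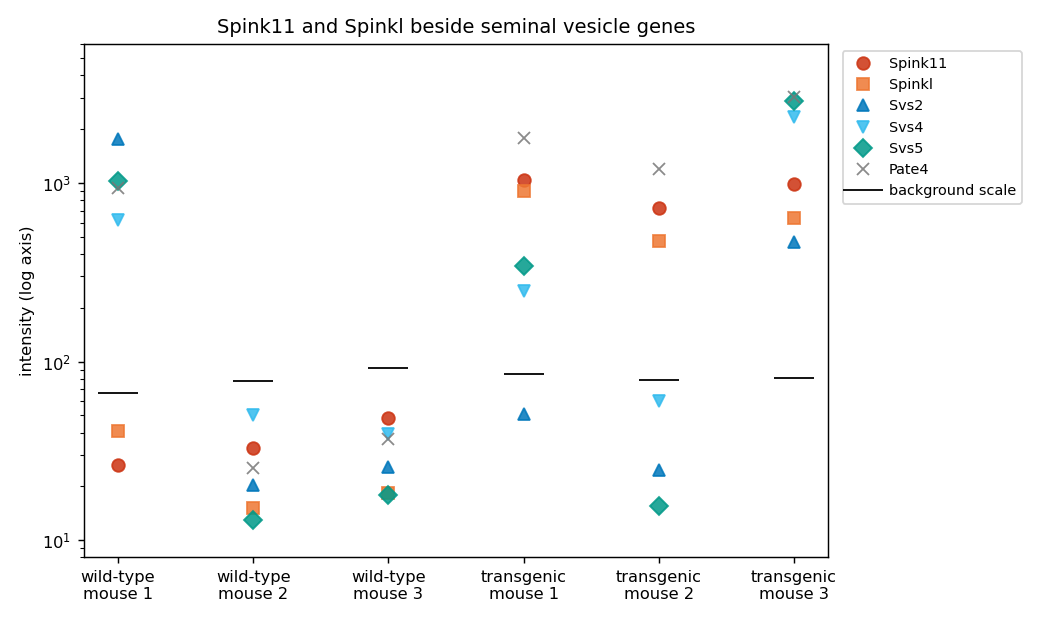
Intensity (log axis) of Spink11, Spinkl and 4 seminal vesicle genes in each of the 6 mice, with the background scale of each array as a black bar. Svs2, Svs4 and Svs5 lie below background in transgenic mouse 2, where Spink11 is at 725.2 and Spinkl at 473.5, and far above it in wild-type mouse 1, where both SPINK genes are below. Svs4, Svs5 and both SPINK genes lie above background in transgenic mice 1 and 3. In wild-type mice 2 and 3, Svs2, Svs4, Svs5, Pate4 and both SPINK genes lie below it. Pate4 lies above background in all transgenic mice, at 1203 or more, and in wild-type mouse 1, at 941.9. The 4 plotted genes were chosen after their values were seen. Ceacam10, of the same list and not plotted, had a mean of 42.3 in wild-type and 932.5 in transgenic mice.

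Spink8, Spink10, Spink11 and Spink12 are epididymal genes, so epididymis and vas deferens markers were examined as well. In limma 5 of 16 measured had an unadjusted p under 0.05, as had 2428 of all 19938 genes. Of the 16, 2 were called higher and none lower, and the median log2 change was 0.04. The 2 were Adam7, a metalloprotease-family gene (2.41 ± 0.09 on the log2 scale, from 17.1 ± 2.70 to 159.4 ± 7.94, at least 2.04-fold over background), and Wfdc8, another protease inhibitor gene (0.82 ± 0.09), which exceeded background on 2 of 3 transgenic and no wild-type arrays. The other 3 genes with an unadjusted p under 0.05 had negative changes that did not pass: Lcn5 (−0.30), Rnase10 (−0.31) and Adam28 (−0.28), the brightest of the list. Of the 16, 11 lay below background on every array, among them Lcn8, Crisp4 and Rnase9. The summed intensity was 837.3 to 1008 in wild-type and 1026 to 1112 in transgenic mice. Without Adam7 it was 823 to 988.5 and 875.9 to 950.1, which overlap. Adam7 was taken out after its values were seen. With 11 of the 16 genes below background, this sum cannot show whether the share of epididymal cells differed. The part of these cells in the change of Spink11 was not tested.

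Spink1 was set beside the prostate secretory list, of which it is not a member. Of 13 measured genes, 5 were lower, 1 was higher and 7 did not pass, with a median log2 change of −0.21. The lower genes with the smallest p were Pigr (−1.79 ± 0.10), Crabp1 (−1.76 ± 0.10) and Azgp1 (−1.17 ± 0.10), and Cldn10 was higher (1.33 ± 0.12). Among those that did not pass, Tgm4, the brightest of the list, had a log2 change of 0.07, Fkbp5 of 0.23, Krt8 of 0.14 and Msmb of −0.52. The summed intensity of the list was 53990.4 to 57570 in wild-type and 44494 to 47693 in transgenic mice. Its part in the change of Spink1 was not tested.

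Markers of further cell types that SPINK genes are known from gave no calls in limma. This held for 9 male germ cell, 7 goblet cell, 6 pancreatic acinar and 8 keratinising epithelium genes, of which 0, 2, 1 and 2 had an unadjusted p under 0.05. Their median log2 changes lay between −0.05 and 0.03. Smooth muscle (7 genes), urothelium (5) and immune markers (7) also had 0 calls, with 0, 1 and 1 at an unadjusted p under 0.05. All 7 immune markers had positive changes, with a median of 0.19. Of 15 alternative settings, 5 gave 1 call among the urothelium, 3 among the immune, 2 among the goblet cell and 1 among the acinar genes. The brightest gene of each of these lists had a log2 change of −0.05 (the protamine gene Prm1), −0.30 (Agr2), 0.23 (Pnliprp1), 0.06 (the keratin gene Krt5), 0.15 (the smooth muscle actin gene Acta2), −0.68 (the uroplakin gene Upk1a) and 0.77 (the lysozyme gene Lyz2). Agr2, of the goblet list, had a wild-type mean of 2890, against 59.3 for Muc2. Pnliprp1, of the acinar list, had one of 4569, against 36.5 for Cpb1. Which cells Agr2 and Pnliprp1 come from here was not tested.

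Kallikreins are among the proteases that Kazal inhibitors act on, and several Klk1b genes were higher in transgenic prostates. Of 21 measured kallikrein genes, 7 were higher and 0 lower in limma, with a median log2 change of 0.15. All 7 belong to the 9 measured genes listed as Klk1b. The other two of these did not pass: Klk1b9 had a log2 change of 0.56 (adjusted p 0.408), and Klk1b16 one of −0.28 (adjusted p 0.348), from 76.7 ± 12.7 to 59.8 ± 1.94 (SD, n = 3 each) without overlap.

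The log2 change was 4.31 ± 0.09 (SE) for Klk1b27, 4.95 ± 0.12 for Klk1b24 and 2.38 ± 0.08 for Klk1b22. No wild-type array exceeded background for these genes and every transgenic array did, so their folds are bounds of at least 10.8-fold, 27.7-fold and 2.09-fold. Klk1b1 had a log2 change of 1.76 ± 0.11 (adjusted p 1.3e-04, limma), from 5.98 ± 1.90 to 58.5 ± 8.13 (SD, n = 3 each), and lay below background in all mice of both genotypes, so no fold is given. Signal shared among these similar kallikreins was not separated either.

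Of 32 measured trypsin-like and elastase-like proteases, 1 was higher and 0 lower. This was the membrane protease Tmprss4, which went from 62.7 ± 6.64 to 137.8 ± 9.48 (SD, n = 3 each), which is 0.97 ± 0.09 on the log2 scale (adjusted p 0.0017, limma) and at least 1.76-fold over background. The median log2 change of the 32 was 0.02. Of 4 listed protease-activated receptors, which such proteases cleave, only F2r, F2rl2 and F2rl3 were measured, so the family is not covered in full. These 3 gave 0 calls in limma and 0 at an unadjusted p under 0.05, with changes from 0.01 to 0.29. F2rl2 lay below background on every array.

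The 2 lists of inhibitor and Kazal-domain genes outside the SPINK family gave 1 call each. Of 20 other genes whose proteins hold a Kazal or follistatin-like Kazal domain, only Spock1, which encodes the proteoglycan testican, was called (0.66 ± 0.08, adjusted p 0.0054), and the median log2 change was 0.15. Of 17 Kunitz, serpin and Slpi genes, only the serpin Serpinb6a was called. It fell by 0.54 on the log2 scale, from 1149 ± 94.0 to 785.8 ± 7.21 (SD, n = 3 each), with an adjusted p of 0.0220, and kept the call when wild-type replicate 1 was left out but not when any other array was (adjusted p up to 0.134). The median of these 17 was 0.09.

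The genes most like each called member were found by Pearson correlation of log2(intensity + 16) over the 6 arrays, among 447 other genes with a range of at least 1 on that scale. These correlations are descriptive, since the 6 arrays share the contrast between genotypes. Spink11 was most like Adcy8 (0.999), the acid nuclease gene Dnase2b (0.999) and Fam89a (0.999). Dnase2b rose by 3.31 ± 0.13 on the log2 scale (at least 4.65-fold over background), and Fam89a by 1.90 ± 0.08 (at least 3.27-fold). Spinkl was most like Hmgn3 (0.995), the selenoprotein gene Selenop (0.995) and the adhesion receptor gene Adgrg2 (0.993).

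Spink8 was most like Smgc (0.983), the keratin gene Krt7 (0.974) and Hmgn3 (0.974). Smgc, a submandibular gland mucin-related gene, went from 48.5 ± 8.63 to 224.5 ± 83.0 (SD, n = 3 each). Spink1 was most like Sbp (0.993), which encodes spermine-binding protein and fell by 0.91 ± 0.09 on the log2 scale, D030018L15Rik (0.992) and Rnf186 (0.991). D030018L15Rik went from 557.1 ± 111.2 to 87.6 ± 6.02.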

How the data were processed

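RNA from dissected prostates was biotinylated with a whole-transcript kit for Affymetrix arrays, per the labels' protocols. The deposited table holds intensity values on a linear scale, up to 21952, as read from the values; how they were summarised and normalized is not given in the sources used here, and no further normalization was applied. Of 35512 probe sets, 6568 with identifiers below the gene-level range were taken for controls and left out. Log2(intensity + 16) was fitted in R 4.3.3 with limma 3.58.1 (lmFit, eBayes), comparing the genotypes without covariates, two-sided, with Benjamini-Hochberg adjustment over 28944 probe sets. The fit was tested on simulated data. Of these probe sets, 21789 had 1 symbol, 1621 several and 5534 none named here; genes with several probe sets were followed by the one with the highest mean. The adjusted p-values rest on the spread between mice of a genotype, which eBayes moderates toward a value estimated over all tested probe sets.

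The members and the 17 other gene lists (195 of 223 listed symbols measured) were chosen with earlier results of these data known. Named genes were all SPINK genes, up to 4 called genes with the smallest p per protease or inhibitor list, up to 3 called genes and the brightest per marker list, and the 3 genes most like each called member; Svs2, Svs4, Svs5, Pate4, Cldn10, genes given as examples of a list and the chromosomal neighbours were chosen after their values were seen. The alternatives were added constants of 1 and 64, quantile normalization, array weights, median centring, a filter on the dimmest 40% of probe sets, robust variances with an intensity trend, the mean of a gene's probe sets, a block on mouse number, each array left out, and, chosen after seeing the data, 2 arrays left out together.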

Additional observations from a re-analysis of the deposited data

How the results depend on the processing

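Over 16 alternative settings the calls on Spink11 and Spinkl held in all, with adjusted p up to 0.00179 and 0.00408. Those on Spink1 and Spink8 held in 10 and 6. The count of members called, 4, ran from 2 to 4 and the count lower, 1, from 0 to 1 when 1 array was left out, and with 2 arrays left out together they were 2 and 0. With a replicate block on mouse number 2 members were called, 0 of them lower, and 250 of all probe sets against 425. The deviations of same-numbered mice from their genotype means correlated at −0.04, 0.05 and −0.16, and 1 of 6 arrays correlated best with its own number, so the numbers were not taken as pairs. Fewer samples or residual degrees of freedom enter these fits. The sign of small changes turned for Spink2 (−0.012 with 2 arrays left out together), Spink12 (0.024 after quantile normalization, −0.12 to 0.065 over single arrays left out), Spink7 (−0.0049 after median centring, −0.036 to 0.13 over single arrays left out) and Spink14 (−0.0013 after median centring, −0.023 to 0.089 over single arrays left out); the cause was not tested. Calls among the 17 Kunitz and serpin genes ran from 0 to 4, among the 11 seminal vesicle genes from 1 to 4 and among 20 other Kazal genes from 0 to 1. Median centring shifted all probe sets to a median change of −0.03. Members near background limit what can be seen below it.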
